A study of Homo sapiens with 6 samples.

Results

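The genes described are AMPH, FOXR2, LDB2, SLC9A2, KLHL13, PLCH2, RASEF, FRMPD3 and NRK, 9 of the 29744 genes counted in a human breast cancer cell line, MDA-MB-231. They were chosen by symbol, as genes with few or no reads in the control libraries that were read in at least 1 of the lines depleted of PARP1 and a Polycomb subunit. That choice used the levels in all 6 libraries. Differences from control are therefore given as descriptions without a test. The difference between the depleted lines is tested for 8 of the genes, although the depleted libraries also entered the choice. It is only described for NRK, which is in the set through shSUZ12 cells alone.

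Messenger RNA was sequenced from 2 libraries of each of 3 groups, all of MDA-MB-231, a triple-negative line of mesenchymal character. The shSUZ12 cells carried a PARP1 knockout (PARP1 KO) and a short hairpin RNA (shRNA) against SUZ12. The shEZH2 cells carried a PARP1 KO and an shRNA against EZH2. The control (WT shCntr) was wild type for PARP1 and carried a nontargeting shRNA. All cells had been cultured for 2 days before RNA was taken. No group lacked PARP1 alone or carried a Polycomb shRNA alone, so what the knockout and each shRNA contribute cannot be told apart, and the labels do not say how many clones a group holds.

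Polycomb repressive complex 2 (PRC2) methylates a lysine in the tail of histone H3. EZH2 is its methyltransferase and SUZ12 a scaffold that the enzyme needs. This mark lies over CpG-rich promoters of genes kept silent in a given cell type, many of them regulators of development or genes of another lineage. PARP1 builds poly(ADP-ribose) chains on proteins at DNA breaks and on chromatin.

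Levels are given in CPM, read counts scaled to a common library size with TMM factors. Gene reads numbered 20135270 to 22782742 per library, so that 3 counts, the limit below which a gene is taken as not detectable, equalled 0.134 to 0.153 CPM. PARP1 stood at 28.6 and 26.5 CPM in shSUZ12 cells, 33.6 and 28.6 CPM in shEZH2 cells, and 425 and 360 CPM in control. EZH2 stood at 53.1 and 63.4 CPM in shEZH2 cells, against 199 and 188 CPM in control. SUZ12 stood at 76.0 and 70.3 CPM in shSUZ12 cells, against 134 and 133 CPM in control, a log2 difference of -0.87 ± 0.37 (SE) with an adjusted p of 0.377 (edgeR quasi-likelihood, Benjamini-Hochberg). That adjusted p rests on a spread estimated over all 3 groups, the shEZH2 libraries included. SUZ12 also differed between the shEZH2 libraries, at 130 CPM in replicate 1 and 53.1 CPM in replicate 2. The shEZH2 replicates were unlike over many genes, since 11.0% of tested genes differed more than 2-fold between them on the log2(CPM + 0.5) scale, against 0.254% in shSUZ12 cells and 0.719% in control. Whether the libraries of a group are separate cultures is not stated in the labels, so each p-value reflects only the spread between these libraries, possibly a technical one.

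Of the 9 genes, 3 had no control count at all, 2 had 2 and 6 control counts over both libraries, and 4 had between 24 and 56. The name "silent in control" therefore holds to the depth of these libraries for AMPH, FOXR2 and LDB2, and SLC9A2, at 1 count in each control library, was under the 3-count limit in both. KLHL13, at 2 and 4 control counts, lay on either side of that limit. The other 4 were read in control, and NRK averaged 1.31 ± 0.70 CPM there (SD, n = 2). The name "switched on" does not describe NRK in shEZH2 cells, where it stood at the control level. In bulk RNA, a low level in every cell and a higher level in few cells cannot be told apart, nor can fewer cells and less RNA per cell.

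**Figure D1:**
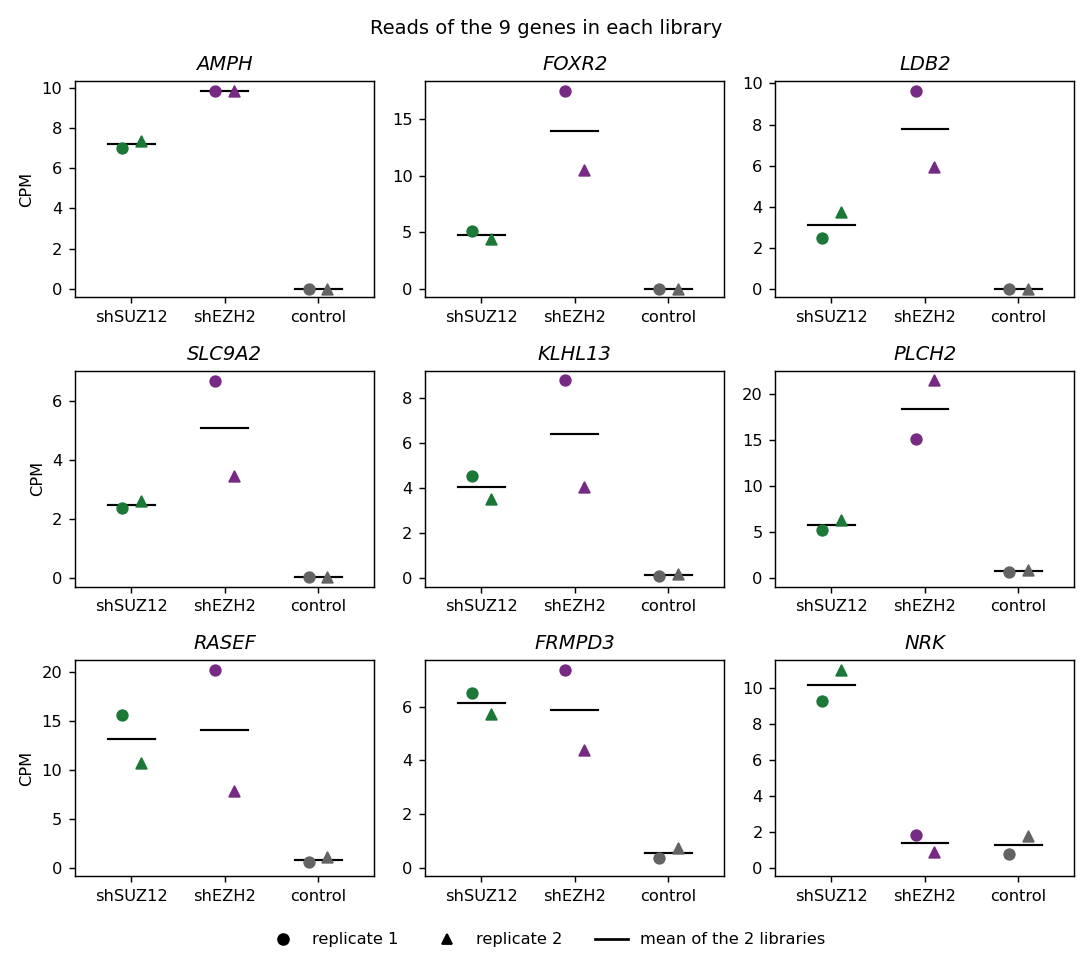
Level of each of the 9 genes in CPM (vertical axis) in every library, with shSUZ12 cells at the left, shEZH2 cells in the middle and control at the right; points are libraries and bars are group means. AMPH, FOXR2 and LDB2 lie at 0 in both control libraries, and NRK is the gene for which only the shSUZ12 libraries stand above control.

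Both nuclear factors in the set, FOXR2 and LDB2, had 0 counts in each control library. FOXR2 is a forkhead transcription factor encoded on the X chromosome, known as an oncogene in tumours of the nervous system. It lies in a single exon at chrX:55623400-55625325 on the plus strand of GRCh38 (GENCODE 29 annotation). FOXR2 was counted 115 and 92 times in shSUZ12 cells, 363 and 205 times in shEZH2 cells, and 0 and 0 times in control. In CPM these were 5.14 and 4.39 in shSUZ12 cells and 17.5 and 10.5 in shEZH2 cells. Every depleted library was above both control libraries, and the shEZH2 libraries were above the shSUZ12 libraries. Set against 3 counts over the control group, FOXR2 was at least 68.9-fold higher in shSUZ12 cells and at least 203-fold higher in shEZH2 cells.

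LDB2 is a LIM domain-binding adaptor that bridges LIM-homeodomain and LIM-only proteins into transcription complexes. It spans chr4:16501541-16898809 on the minus strand. LDB2 had 55 and 78 counts in shSUZ12 cells, 200 and 116 in shEZH2 cells, and 0 and 0 in control. Its level was 2.46 and 3.72 CPM in shSUZ12 cells and 9.64 and 5.92 CPM in shEZH2 cells. The pattern was that of FOXR2, with the level in shEZH2 cells highest and no overlap between groups. LDB2 was at least 44.2-fold above control in shSUZ12 cells and at least 113-fold above it in shEZH2 cells. Its paralogue LDB1, the widely expressed member of the pair, was read in all groups, at 78.8 and 86.3 CPM in shSUZ12 cells, 61.4 and 74.4 CPM in shEZH2 cells, and 64.4 and 72.0 CPM in control.

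AMPH, SLC9A2 and RASEF act at membranes. AMPH encodes amphiphysin, which senses membrane curvature through its BAR domain and recruits dynamin to clathrin-coated buds, chiefly at nerve terminals. The gene lies at chr7:38383704-38631567 on the minus strand. AMPH had 157 and 154 counts in shSUZ12 cells, 204 and 192 in shEZH2 cells, and 0 and 0 in control. Its levels were the most even of the set, at 7.01 and 7.34 CPM in shSUZ12 cells and 9.83 and 9.81 CPM in shEZH2 cells. The bound on the difference from control was at least 103-fold in shSUZ12 cells and at least 142-fold in shEZH2 cells. BIN1, the ubiquitous amphiphysin paralogue, was read everywhere, at 51.3 and 56.2 CPM in shSUZ12 cells, 29.4 and 56.4 CPM in shEZH2 cells, and 30.1 and 40.3 CPM in control.

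SLC9A2 encodes NHE2, a sodium-proton exchanger of gut and kidney epithelia, and lies at chr2:102619707-102711318 on the plus strand. It had 53 and 55 counts in shSUZ12 cells, 139 and 68 in shEZH2 cells, and 1 and 1 in control. These are 2.37 and 2.62 CPM in shSUZ12 cells, 6.70 and 3.47 CPM in shEZH2 cells, and 0.0450 and 0.0475 CPM in control. With 2 control counts the ratios to control are poorly bounded, at 53.9 in shSUZ12 cells (exact 95% counting interval 14.6 to 451) and 111 in shEZH2 cells (30.4 to 923).

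RASEF, also called Rab45, is a large Rab GTPase with EF-hand motifs, at chr9:82979585-83063177 on the minus strand. In CPM, with no allowance for length, it was the highest of the 9 genes in shSUZ12 cells, at 15.6 and 10.7 CPM, with 20.2 and 7.92 CPM in shEZH2 cells and 0.630 and 1.09 CPM in control. The shEZH2 replicates enclose both shSUZ12 values, and all 4 depleted libraries lie above control. RASEF was 15.5-fold above control in shSUZ12 cells (counting interval 11.1 to 22.3) and 16.7-fold above it in shEZH2 cells (12.0 to 23.9). As a fitted log2 difference, that of shEZH2 cells was 4.03, and 3.20 without shEZH2 replicate 1.

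PLCH2 and NRK are signalling enzymes, and they are the genes for which the depleted lines differed most. PLCH2 is a calcium-sensitive phospholipase C of the eta class, known chiefly from neurons, at chr1:2425980-2505530 on the plus strand. It was read at 5.27 and 6.29 CPM in shSUZ12 cells, 15.2 and 21.5 CPM in shEZH2 cells, and 0.675 and 0.902 CPM in control. The 3 groups did not overlap, and shEZH2 cells were highest. PLCH2 was 7.34-fold above control in shSUZ12 cells (counting interval 5.11 to 10.8) and 23.2-fold above it in shEZH2 cells (16.5 to 33.8). Its paralogue PLCH1 was at 4.38 and 5.10 CPM in shSUZ12 cells, 7.81 and 3.22 CPM in shEZH2 cells, and 4.14 and 4.65 CPM in control, with overlapping groups.

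NRK, the Nik-related kinase, belongs to the germinal centre kinases and is known in the mouse for a role in the placenta. It lies at chrX:105822543-105958610 on the plus strand. NRK was read at 9.29 and 11.0 CPM in shSUZ12 cells, 1.83 and 0.919 CPM in shEZH2 cells, and 0.810 and 1.80 CPM in control. Only the shSUZ12 libraries stand apart, since the shEZH2 and control values interleave. The ratio to control was 7.82 in shSUZ12 cells (counting interval 5.91 to 10.5) and 1.07 in shEZH2 cells (0.727 to 1.58). Without control replicate 2, the fitted log2 difference of shSUZ12 cells from control was 3.63, where it was 2.96 with it, and that of shEZH2 cells was 0.76, where it was 0.08. Of its relatives, TNIK was at 9.25 and 8.53 CPM in shSUZ12 cells, 9.40 and 5.26 CPM in shEZH2 cells, and 6.12 and 8.45 CPM in control.

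KLHL13 and FRMPD3 encode proteins built from interaction domains. KLHL13 is a BTB-Kelch adaptor that, with KLHL9, directs the CUL3 ubiquitin ligase to Aurora B kinase in mitosis. It lies at chrX:117897813-118117340 on the minus strand. KLHL13 had 102 and 74 counts in shSUZ12 cells, 182 and 79 in shEZH2 cells, and 2 and 4 in control. Its level was 4.56 and 3.53 CPM in shSUZ12 cells, 8.77 and 4.03 CPM in shEZH2 cells, and 0.0900 and 0.190 CPM in control. The depleted lines overlap, and both lie above control, by 29.3-fold in shSUZ12 cells (counting interval 13.2 to 80.9) and 46.7-fold in shEZH2 cells (21.2 to 128). The fitted log2 difference of shEZH2 cells from control was 5.47, and 4.80 without shEZH2 replicate 1 or 6.06 without control replicate 2. That of shSUZ12 cells was 4.81, and 5.39 without control replicate 2. Its partner KLHL9 had no count in any library.

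FRMPD3 carries FERM and PDZ domains, which tether proteins to membranes and to each other, and its role is little described. It lies at chrX:107522450-107605251 on the plus strand. FRMPD3 was read at 6.52 and 5.72 CPM in shSUZ12 cells, 7.37 and 4.39 CPM in shEZH2 cells, and 0.360 and 0.760 CPM in control. The depleted lines overlap here too. The ratio to control was 11.1 in shSUZ12 cells (counting interval 7.27 to 17.6) and 10.7 in shEZH2 cells (7.01 to 17.0). Without control replicate 2, the fitted log2 differences from control were 4.06 in shSUZ12 and 4.004 in shEZH2 cells, where they were 3.45 and 3.39 with it. FRMPD1 and FRMPD2 had no count in any library. FRMPD4 had 15 counts in all, at 0.357 and 0.143 CPM in shSUZ12 cells, 0.193 and 0 CPM in shEZH2 cells, and 0 in both control libraries.

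Per kilobase of the longest transcript, which allows genes to be compared, the 9 genes were of low to middling level even where they were highest. In shSUZ12 cells they ran from SLC9A2 at 0.461 CPM per kb, above 9.07% of the 12662 tested protein-coding genes, to FOXR2 at 2.47 CPM per kb, above 25.6%. In shEZH2 cells NRK was lowest at 0.171 CPM per kb, above 3.83%, and FOXR2 highest at 7.26 CPM per kb, above 47.7%. FOXR2 in shEZH2 cells was thus close to the median tested gene. In control the levels ran from 0 to 0.162 CPM per kb, the last being NRK, above 3.90%.

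The contrast of the depleted lines was tested over all 14192 genes that passed the filter on low counts, and all 9 genes passed it. The depleted libraries that entered it also entered the choice of the genes. In this contrast 1.52% of tested genes were called at an adjusted p under 0.05. Of the 8 genes tested here 1 was called, PLCH2, lower in shSUZ12 cells, where 0.796% of all tested genes were called lower and 0.726% higher. PLCH2 differed by a log2 value of -1.66 ± 0.27 (SE) between shSUZ12 and shEZH2 cells, with an adjusted p of 0.0371 (edgeR quasi-likelihood, Benjamini-Hochberg). Its mean was 3.17-fold higher in shEZH2 cells than in shSUZ12 cells. The PLCH2 call is lost without either shSUZ12 library and without either control library, with edgeR adjusted p-values up to 0.482, and when only the depleted lines are fitted, at 0.133. NRK differed by 2.87 ± 0.45 on the log2 scale, a mean 7.38-fold higher in shSUZ12 cells. That value is a description, since the rule took NRK for its level in shSUZ12 cells.

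The other 7 genes were not called in this contrast. FOXR2 had a log2 difference of -1.55 ± 0.33, LDB2 of -1.33 ± 0.38, and SLC9A2 of -1.03 ± 0.37, with edgeR adjusted p-values of 0.0715, 0.113 and 0.156 in that order. In these 3, as in AMPH (-0.45 ± 0.25, edgeR adjusted p 0.308), both shEZH2 libraries lay above both shSUZ12 libraries. The share of all tested genes whose libraries part in this way was not counted. KLHL13 (-0.66 ± 0.41), RASEF (-0.10 ± 0.44) and FRMPD3 (0.06 ± 0.36) had overlapping libraries, with edgeR adjusted p-values of 0.354 to 0.936. Values were below 0, that is lower in shSUZ12 cells, for 7 of the 9 genes. The median of the 9, NRK included as a description, was -0.66, beside 0.04 over all tested genes. The share of all tested genes below 0 was not counted, and the levels in the depleted lines entered the choice of the 9. The signs of KLHL13, RASEF and FRMPD3 turn when single libraries are left out, and without shEZH2 replicate 1 the log2 difference of RASEF was 0.74.

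**Figure D2:**
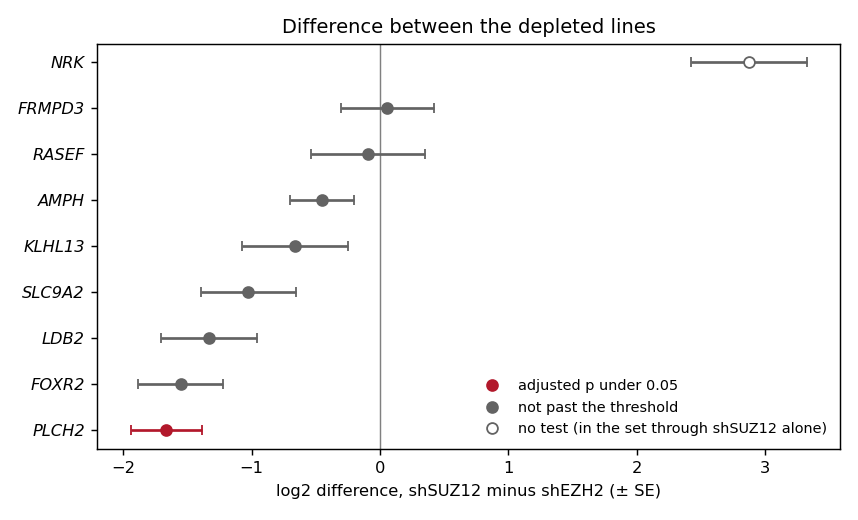
Log2 difference of shSUZ12 cells from shEZH2 cells (horizontal axis) for each of the 9 genes, with error bars of ± SE from the edgeR fit; PLCH2, the called gene, is in red, and NRK, given without a test, is an open point. NRK stands to the right at 2.87 and PLCH2 to the left at -1.66, while RASEF and FRMPD3 lie at 0.

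Replicates of shEZH2 cells differed for most of the 9 genes. Replicate 1 was higher than replicate 2 in 8 of 9, and in 8 of 9 the exact 95% counting interval of their ratio left out 1. The like shares over all tested genes were not counted. These replicates were unlike over many genes, with 11.0% of tested genes differing more than 2-fold, so the counts are not a trait of the 9 genes alone. The ratio of replicate 1 to replicate 2 was 2.56 for RASEF (2.12 to 3.09), 2.17 for KLHL13 (1.66 to 2.87), and 1.67 for FOXR2 (1.40 to 1.99). PLCH2 went the other way at 0.706 (0.608 to 0.819), and the replicates of AMPH were even (interval 0.819 to 1.23). In shSUZ12 cells replicate 1 was higher in 4 of 9 genes, and the interval left out 1 in 2, LDB2 and RASEF. In control it left out 1 in 1 of the 6 genes with counts in both libraries, NRK.

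The gap between the shEZH2 replicates moved with transcript length over all genes. Genes were split by length into 5 groups of like size, the shortest up to 1929 bases and the longest from 5772 bases. From short to long, the median log2 difference of replicate 1 from replicate 2 was -0.55, -0.25, 0.00, 0.31 and 0.66. Transcripts of the 9 genes run from 1926 bases (FOXR2) to 8062 bases (NRK). NRK (0.72) and FRMPD3 (0.69) lay near the median of the longest group, and AMPH (0.00) near that of the middle one. SLC9A2 (0.86), KLHL13 (1.03) and RASEF (1.30) lay above the 0.31 of their length group, and PLCH2 (-0.49) below it. FOXR2 (0.71) and LDB2 (0.66) are short and yet were higher in replicate 1, where genes of their length had medians below 0. The part of length in these values was not tested gene by gene. The trend against length was also removed from each library, a correction chosen after seeing the data. Between the depleted lines 1258 genes were then called, against 216 without it. PLCH2 was among them, and so was SLC9A2, lower in shSUZ12 cells (log2 -1.23, edgeR adjusted p 0.0385). FRMPD3 turned to -0.26 (shSUZ12 minus shEZH2).

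**Figure D3:**
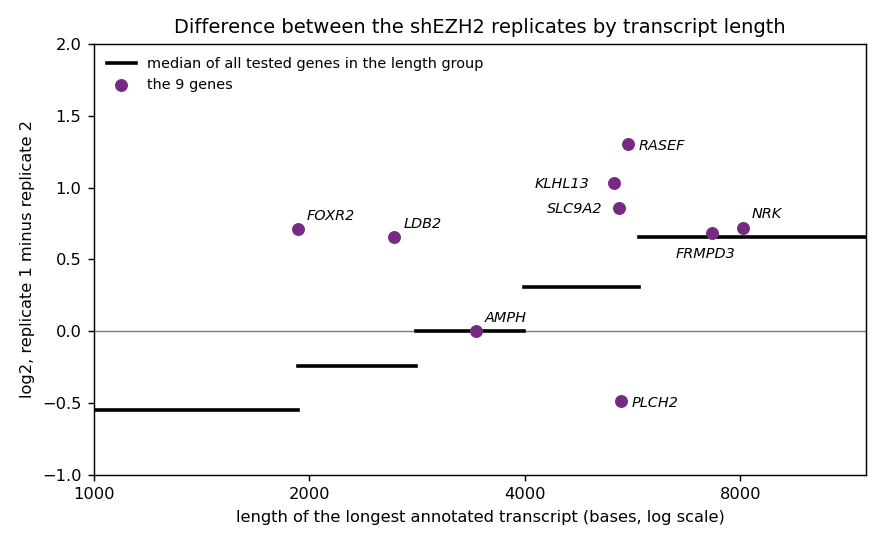
Log2 difference between shEZH2 replicate 1 and replicate 2 (vertical axis) against length of the longest transcript in bases (log axis), with the 9 genes as labelled points and the medians of 5 length groups of all tested genes as horizontal bars. The bars climb from -0.55 to 0.66; FOXR2 and LDB2 lie above theirs and PLCH2 below.

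The annotated start regions of these genes were of unlike base composition. CpG-rich starts are the kind on which PRC2 is known to act, so the share of CpG was read from the RefSeq windows of GRCh38.p14, each 250 bases before to 50 bases after a start. Windows were found for 8 of the 9 genes, 11 in all, because KLHL13 has 2 and PLCH2 has 3. LDB2 was not analysed here. A window was called CpG-dense at a GC content of at least 50% and a ratio of observed to expected CpG of at least 0.6, and 46.9% of all 35116 windows met this. AMPH, SLC9A2, RASEF, NRK and 1 of the KLHL13 windows were CpG-dense. FOXR2, FRMPD3 and all PLCH2 windows were not. AMPH stood out with a ratio of 1.15, above 98.6% of all windows. A CpG-dense window was present in 5 of the 8 genes (62.5%), beside 37.0% of 5024 protein-coding genes under 1 CPM in control and 88.5% of 9087 at 1 CPM or more.

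The 250 bases upstream of the annotated start are printed for 4 genes, as pairs of a CpG-dense and a CpG-poor start: AMPH and FOXR2, which had 0 control counts, and NRK and FRMPD3, which were read in control. Each runs 5′ to 3′ on the strand of the gene, and capitals mark every CG. AMPH is chr7:38631374-38631623 on the minus strand with 28 CG pairs, and FOXR2 is chrX:55623150-55623399 on the plus strand with 1. NRK is chrX:105822289-105822538 on the plus strand with 21, and FRMPD3 is chrX:107522200-107522449 on the plus strand with 4. The starts are those of RefSeq, and that of AMPH lies inside the GENCODE 29 span given above, which covers most of the stretch printed.

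AMPH: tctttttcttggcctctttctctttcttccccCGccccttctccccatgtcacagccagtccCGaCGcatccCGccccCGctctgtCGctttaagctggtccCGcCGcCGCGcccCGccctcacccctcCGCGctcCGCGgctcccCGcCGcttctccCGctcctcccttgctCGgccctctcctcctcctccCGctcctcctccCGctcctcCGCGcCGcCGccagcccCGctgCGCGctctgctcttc
FOXR2: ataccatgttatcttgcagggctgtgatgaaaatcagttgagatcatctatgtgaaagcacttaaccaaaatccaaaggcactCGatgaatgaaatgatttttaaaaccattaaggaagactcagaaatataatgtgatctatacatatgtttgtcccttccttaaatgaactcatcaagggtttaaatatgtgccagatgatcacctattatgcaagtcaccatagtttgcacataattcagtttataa
NRK: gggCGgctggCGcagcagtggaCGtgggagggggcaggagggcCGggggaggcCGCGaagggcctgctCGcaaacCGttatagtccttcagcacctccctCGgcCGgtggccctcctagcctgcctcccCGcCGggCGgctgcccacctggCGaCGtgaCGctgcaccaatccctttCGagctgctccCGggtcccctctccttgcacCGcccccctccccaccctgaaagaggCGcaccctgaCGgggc
FRMPD3: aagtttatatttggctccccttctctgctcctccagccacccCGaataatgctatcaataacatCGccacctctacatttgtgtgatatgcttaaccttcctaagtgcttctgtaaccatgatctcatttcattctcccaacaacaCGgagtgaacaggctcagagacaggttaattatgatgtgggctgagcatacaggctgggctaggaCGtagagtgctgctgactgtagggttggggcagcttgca

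Both AMPH and FOXR2 had 0 control counts, yet AMPH had the highest ratio of the 11 windows at 1.15 and FOXR2 the lowest but for a KLHL13 window, at 0.11. NRK and FRMPD3, both read in control, had ratios of 0.68 and 0.27. Of short promoter motifs searched on both strands, TATAAA was in 3 of the 11 windows (11.5% of all windows), CCAAT in 4 (34.6%) and GGGCGG in 8 (45.0%). The windows are not all separate sequences. PLCH2 windows chr1:2476039-2476338 and chr1:2476065-2476364 overlap over most of their length, and both hold CCAAT and GGGCGG. Which start was used cannot be read from counts per gene.

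Of the 9 genes 4 lie on the X chromosome: FOXR2, NRK, FRMPD3 and KLHL13. That is 44.4%, beside 3.53% of the tested protein-coding genes (447 of 12662) and 5.61% of protein-coding genes under 1 CPM in control (408 of 7270). Among the 24 protein-coding genes under 1 CPM in control and at 5 CPM or more in a depleted line, 3 were X-linked (12.5%), and all 3 are among the 9. No test of the share was run. They do not form a single cluster. NRK and FRMPD3 are 1.56 Mb apart, FRMPD3 and KLHL13 are 10.3 Mb apart, and FOXR2 lies 50.2 Mb from NRK.

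The neighbours of the 9 genes were then examined, taking up to 2 counted genes on each side within 1 Mb. Of 33 neighbours 19 were tested and 7 had no count in any library. In shSUZ12 cells against control 1 rose and 1 fell, where 1.61% of all tested genes were called, 0.719% higher and 0.888% lower. In shEZH2 cells against control 4 rose and none fell, where 6.74% were called, 3.54% higher and 3.20% lower. Between the depleted lines none was higher and 1 was lower in shSUZ12 cells, where 1.52% of all tested genes were called, 0.726% higher and 0.796% lower.

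MUM1L1, 209.7 kb from NRK, likewise had no control counts. It had 42 and 27 counts in shSUZ12 cells, 34 and 26 in shEZH2 cells, and 0 and 0 in control. MUM1L1 was at least 23.0-fold above control in shSUZ12 cells and at least 21.5-fold in shEZH2 cells, with adjusted p-values of 0.0146 and 0.0101 (edgeR quasi-likelihood, Benjamini-Hochberg). Its counts in the depleted lines overlap, which those of NRK do not. MAGEH1, a MAGE family gene 170 kb from FOXR2, was at 5.54 and 4.39 CPM in shSUZ12 cells, 5.64 and 6.28 CPM in shEZH2 cells, and 1.98 and 2.42 CPM in control. It rose in shEZH2 cells by 1.44 ± 0.28 on the log2 scale (edgeR adjusted p 0.0304), and its value in shSUZ12 cells was 1.17 ± 0.28 (edgeR adjusted p 0.112).

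The remaining calls were smaller or ran the other way. RER1, which returns proteins to the endoplasmic reticulum, lies 20.5 kb from PLCH2 and rose by 0.88 ± 0.17 in shEZH2 cells (edgeR adjusted p 0.0280). QDPR, an enzyme of tetrahydrobiopterin recycling 561 kb from LDB2, rose by 0.92 ± 0.21 in the same line (edgeR adjusted p 0.0447). FRMD3, a FERM domain gene 180 kb from RASEF, was at 1.25 and 1.53 CPM in shSUZ12 cells, 7.86 and 4.75 CPM in shEZH2 cells, and 9.36 and 11.1 CPM in control. It fell in shSUZ12 cells by 2.88 ± 0.34 on the log2 scale (edgeR adjusted p 0.0122), while RASEF beside it was higher there than in control. SLC9A4, 85.7 kb from SLC9A2 and of the same family, had 2 counts over all libraries.

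**Figure D4:**
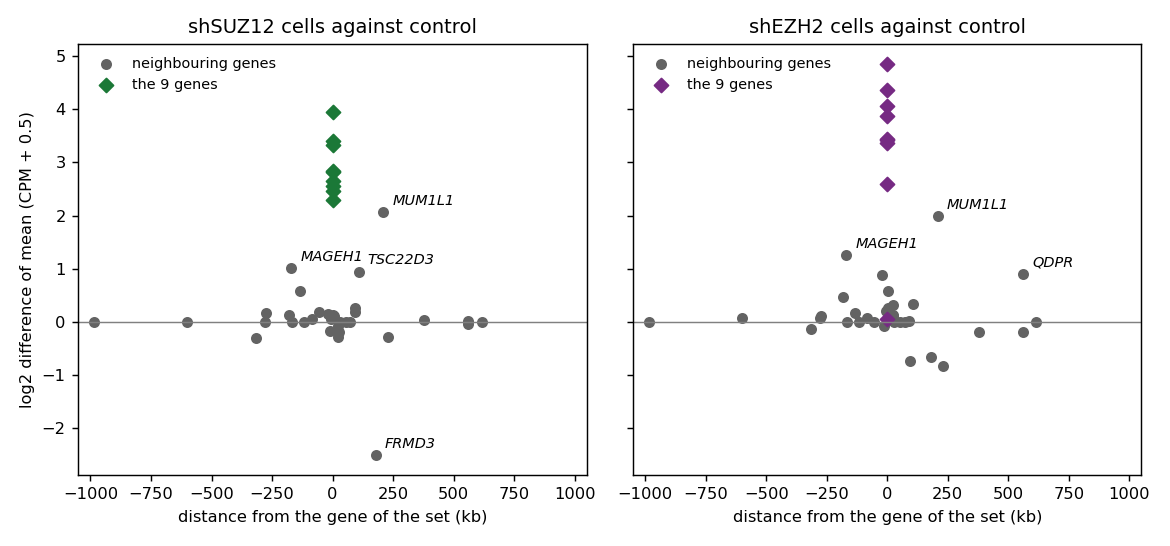
Log2 ratio to control of mean CPM + 0.5 (vertical axis) of the 33 neighbours against distance from the member gene in kb (horizontal axis), for shSUZ12 cells (left) and shEZH2 cells (right). Grey points are neighbours and diamonds at distance 0 are the 9 genes themselves. Most neighbours lie near 0; MUM1L1, MAGEH1 and FRMD3 stand off in shSUZ12 cells, and MUM1L1 and MAGEH1 in shEZH2 cells.

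Of the pathway and family relatives of each gene, 262 listed genes of which 196 were tested, few were called. In shSUZ12 cells against control none rose and 2 fell, in shEZH2 cells 6 rose and 10 fell, and between the depleted lines 1 was higher and 2 lower in shSUZ12 cells. The shares over all tested genes are those given for the neighbours in each contrast. By edgeR's quasi-likelihood test 26 of the 28 calls of relatives, neighbours, members and targeted genes named by rule are lost without control replicate 1 or without control replicate 2, 22 without shSUZ12 replicate 1 and 23 without shSUZ12 replicate 2. With only the groups compared in the fit 20 of the 28 are lost. Calls of relatives gained in such fits were not counted. Over all genes, shSUZ12 cells against control had 2876 calls with only these groups fitted, against 228 in the main fit.

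Among 14 tested genes of LIM-domain complexes, LMO2 rose in shEZH2 cells. LMO2 is a LIM-only bridging protein that binds LDB proteins in blood and endothelial precursors. It was at 3.17 and 2.53 CPM in shSUZ12 cells, 2.51 and 3.78 CPM in shEZH2 cells, and 0.0900 and 0.570 CPM in control. LMO2 rose by 3.25 ± 0.62 (log2) in shEZH2 cells (edgeR adjusted p 0.0280), and in shSUZ12 cells the value was 3.11 ± 0.62 (edgeR adjusted p 0.0619). It was thus low in control and higher in all 4 depleted libraries, as LDB2 was.

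Of 23 tested forkhead genes, FOXA1 and FOXA3 rose in shEZH2 cells. Both are pioneer factors of endoderm and liver, and FOXA1 is a mark of luminal breast cells. FOXA1 stayed low, at 0.491 and 0.524 CPM in shSUZ12 cells, 2.26 and 0.664 CPM in shEZH2 cells, and 0.0450 and 0 CPM in control, where it had 1 count. With a single control count, the ratio of shEZH2 cells to control was 64.4 (counting interval 11.1 to 2585), and the edgeR adjusted p was 0.0266. FOXA3 was at 1.12 and 1.48 CPM in shSUZ12 cells, 5.01 and 5.67 CPM in shEZH2 cells, and 0.765 and 0.522 CPM in control. It rose by 3.04 ± 0.36 in shEZH2 cells (edgeR adjusted p 0.00737) and was lower in shSUZ12 than in shEZH2 cells, by -2.04 ± 0.33 (edgeR adjusted p 0.0347). FOXR1, the nearest relative of FOXR2, was near 0 in every library.

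Of 31 tested endocytic genes, 1 rose and 1 fell in shEZH2 cells, beside 6.74% of all tested genes called. FCHO1, which starts clathrin pits, rose by 1.36 ± 0.25 in shEZH2 cells (edgeR adjusted p 0.0261), and PICALM, a clathrin assembly protein, fell by 1.39 ± 0.21 (edgeR adjusted p 0.0143). Of 17 tested genes of sodium-proton exchange and its regulators, CA12, a membrane carbonic anhydrase, rose by 1.22 ± 0.23 in shEZH2 cells (edgeR adjusted p 0.0280). Of 28 tested Kelch-like and CUL3 ligase genes, KLHL35 rose by 2.36 ± 0.52 in that line (edgeR adjusted p 0.0400). KLHL36, KLHL7 and KLHL5 fell there, with log2 values of -1.15, -1.05 and -1.01.

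Of 25 tested genes of the Rab list, which also holds EFCAB4A and EFCAB4B, 1 fell in shSUZ12 cells and 4 fell in shEZH2 cells. Of all tested genes 0.888% and 3.20% were called lower, and none of the list was called higher. No test of the group was run. RAB3D, a secretory granule Rab, fell by 1.79 in shSUZ12 cells (edgeR adjusted p 0.0477). RAB37, RAB27A and RAB5B fell in shEZH2 cells, with log2 values of -2.12, -0.94 and -0.81. RAB39A also fell there, to 2 counts in shEZH2 cells against 34 in control, a ratio of 0.0631 (counting interval 0.00735 to 0.246). RASEF, by contrast, stood above control in all 4 depleted libraries. Of 15 tested phospholipase C pathway genes, the calcium channel of the endoplasmic reticulum ITPR3 fell by 1.29 ± 0.23 in shEZH2 cells (edgeR adjusted p 0.0226) and was higher in shSUZ12 than in shEZH2 cells by 1.24 ± 0.23 (edgeR adjusted p 0.0496). PLCH2 ran opposite to it between those lines. Of 23 tested FERM and PDZ genes, FRMD3 fell in shSUZ12 cells and FRMD5 fell by 0.81 ± 0.19 in shEZH2 cells (edgeR adjusted p 0.0474, and 0.0503 with a replicate block, which ends the call). None of the 20 tested genes listed with NRK (germinal centre kinases, and the MAP kinases MAPK8 and MAPK9) was called in any contrast. KLHL5, RAB27A and RAB5B were named after their values were seen.

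A wider search gave the size of the class these genes belong to. Genes with a control mean under 1 CPM and a mean of at least 5 CPM in a depleted line numbered 24, of which 8 were members. NRK lay outside, with its control mean above 1 CPM. Of the 24 genes, 7 were read at 5 CPM in both depleted lines, 14 only in shEZH2 cells, and 3 only in shSUZ12 cells, namely CADM1, SPOCK1 and WNT5A. AMPH, FOXR2 and LDB2 were the 3 with 0 control counts. The other 16 included CXCR4, the chemokine receptor, at 5.90 and 5.72 CPM in shSUZ12 cells, 5.45 and 5.87 CPM in shEZH2 cells, and 0.225 and 0.0950 CPM in control. They also included the protease inhibitor SERPINB2, at 8.22 and 9.63 CPM in shSUZ12 cells, 4.77 and 5.41 CPM in shEZH2 cells, and 0.135 and 0.0950 CPM in control. CXCR4 and SERPINB2 were picked after their values were seen.

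Just inside the control limit were WNT5A at 0.904, CEBPA at 0.901 and SPOCK1 at 0.884 CPM, and outside it TSPAN33 at 1.04 and CYB5R2 at 1.07 CPM. Just inside the limit on the read level were EML1 at 5.24, FOXA3 at 5.34 and CREB3L3 at 5.39 CPM, and just outside it LINC01139 at 4.80, SPP1 at 4.78 and CLIC2 at 4.67 CPM.

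The patterns most like each gene were found by the root mean square difference of log2(CPM + 0.5) over the 6 libraries, after centring, among 11003 genes. As a description, the nearest to AMPH was HCLS1 (0.268 log2), a blood-cell cytoskeletal adaptor, at 34.5 and 35.1 CPM in shSUZ12 cells, 57.8 and 59.6 CPM in shEZH2 cells, and 3.33 and 2.85 CPM in control. HCLS1 was second nearest to FOXR2 (0.415) and LDB2 (0.334). FOXR2 was nearest to LDB2 (0.396), and LDB2 to SLC9A2 (0.321). The netrin receptor NEO1 was nearest to KLHL13 (0.142) and RASEF (0.277), at 94.5 and 88.0 CPM in shSUZ12 cells, 145 and 85.2 CPM in shEZH2 cells, and 10.8 and 12.1 CPM in control. NEO1 shared the excess of shEZH2 replicate 1.

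The kynurenine pathway enzyme KYNU was nearest to SLC9A2 (0.187) and PLCH2 (0.409). DOCK3 (0.270) and TMEM108 (0.272) were nearest to FRMPD3. NRK was nearest to TNFSF15 (0.206), a cytokine of the TNF family, at 8.13 and 9.34 CPM in shSUZ12 cells, 1.83 and 1.28 CPM in shEZH2 cells, and 1.03 and 2.09 CPM in control. MYO7B followed at 0.287. These ranks lean on the constant added: with 2 CPM in place of 0.5, 6 of the 18 pairs were the same.

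Since AMPH and PLCH2 are known from neurons, LDB2 from endothelium and FOXR2 from germ cells, markers of such cells were checked. All 10 markers fixed for MDA-MB-231 exceeded 1 CPM in every library and summed to 7971 to 10250 CPM. Of the 8 that should be absent or low in this line, 4 stayed under 1 CPM, and of these ESR1 was at 0 in all libraries. Neuronal markers (12) summed to 81.2 and 78.0 CPM in shSUZ12 cells, 91.8 and 125 CPM in shEZH2 cells, and 93.1 and 98.4 CPM in control, mostly TUBB3, with ELAVL3, ELAVL4 and DCX at 0. Endothelial markers (10) summed to 129 and 150 CPM in shSUZ12 cells, 126 and 161 CPM in shEZH2 cells, and 221 and 202 CPM in control, with CDH5, EMCN and ERG at 0. Single endothelial markers went both ways, and they are named after their values were seen. PECAM1 rose in shEZH2 cells by 1.54 ± 0.36 on the log2 scale (edgeR adjusted p 0.0476), at 4.47 and 7.01 CPM in shSUZ12 cells, 6.22 and 7.87 CPM in shEZH2 cells, and 1.85 and 2.99 CPM in control. TIE1 rose in shEZH2 cells (edgeR adjusted p 0.0272), at 0.402 and 0.334 CPM in shSUZ12 cells, 2.36 and 0.664 CPM in shEZH2 cells, and 0.0450 and 0.0475 CPM in control. KDR fell in shSUZ12 and in shEZH2 cells, with log2 values of -2.53 and -2.07 (edgeR adjusted p 0.0477 and 0.0395). Germ cell markers (8) summed to at most 0.268 CPM, and 7 were at 0. Blood markers (12) summed to 87.0 and 81.1 CPM in shSUZ12 cells, 108 and 118 CPM in shEZH2 cells, and 95.3 and 89.9 CPM in control, mostly CD68, with CD3D, CD3E, CD2 and MS4A1 at 0. CD14 rose in shEZH2 cells by 2.17 ± 0.47 (edgeR adjusted p 0.0372), at 1.83 and 2.10 CPM in shSUZ12 cells, 2.02 and 4.49 CPM in shEZH2 cells, and 0.765 and 0.665 CPM in control. The part of such cells in the levels of the 9 genes was not tested.

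Antisense genes of GENCODE 29 overlap LDB2, PLCH2 and FRMPD3 on the opposite strand. They are not among the counted symbols. Whether counting used strand is not given in the sources used here, and reads of such transcripts may stand among those of the 3 genes.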

How the data were processed

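The deposited values are the authors' raw counts of reads for each gene symbol and library. GRCh38, STAR, GenomeStudio 2010.1 and R 3.2.5 appear in the submitters' processing notes, without their roles. Per the labels' protocols, a stranded poly(A) kit was used. The annotation used for counting is not given in the sources used here. Groups came from the sample titles. Entries naming no gene held 16.5 to 21.0% of the counts and were left out.

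From these counts, edgeR 4.0.16 in R 4.3.3 (TMM scaling, filterByExpr, robust quasi-likelihood fit, limma 3.58.1) fitted all 3 groups of 2 libraries together. Benjamini-Hochberg adjustment ran over 14192 genes, with calls at an adjusted p under 0.05. Sizes are log2 values with standard errors (SE) from the fit. CPM are computed here. Counting intervals (95%, exact conditional binomial) and the 3-count limit cover counting error only, since the labels name no molecular identifiers. Where all control counts were 0, folds are bounds against 3 counts over the group. Gene reads per library ranged from 20135270 to 22782742. The procedure was also run on simulated counts drawn with the same spread in every group, which does not mirror the uneven shEZH2 replicates.

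The 9 genes, the lists and the rules were chosen with earlier results of these data known. Named besides the 9 and the targeted genes were, per family list, at most 3 called genes by absolute log2 difference and the closest relative, the called neighbours (small RNA genes left out), and the 2 genes of most similar pattern. Positions and lengths (longest transcript, 94.7% of tested genes) follow GENCODE 29; 23879 symbols matched, 1264 by synonym. Alternatives were DESeq2 1.42.0, its size factors, no filter, 2 groups alone, a replicate block, each library left out, and a length correction.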

Additional observations from a re-analysis of the deposited data

Results flagged for a closer look

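Between the depleted lines PLCH2 had a log2 difference of -1.66 (shSUZ12 minus shEZH2), with both shEZH2 libraries above both shSUZ12 libraries. These libraries also entered the choice of the genes, so the test is not independent of that choice. The edgeR adjusted p was 0.0371, and 0.133 with only these lines fitted. The call is also lost without either control or either shSUZ12 library.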

How the results depend on the processing

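The number of genes called in shSUZ12 cells against control was 228, and 240 with DESeq2 size factors, 399 with no filter, 527 with DESeq2, 2876 with only the 2 groups fitted, 666 with the length trend removed, and 10 to 3044 with single libraries left out. For shEZH2 cells against control it was 957, and 988, 1471, 1976, 216, 2289 and 5 to 7853 in that order. Between the depleted lines it was 216, and 225, 718, 1304, 1, 1258 and 0 to 7590. The length correction was chosen after seeing the data. Counts were highest where an shEZH2 library was left out.

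Of the 9 genes, 2 passed the threshold (PLCH2 and NRK, the last a description) between the depleted lines, and 2 with DESeq2 size factors, 3 with no filter, 4 with DESeq2, 0 with only the 2 groups fitted, 3 with the length trend removed, and 0 to 7 with single libraries left out. PLCH2 had edgeR adjusted p-values of 9.5e-08 to 0.482 with single libraries left out. Signs turned for NRK in shEZH2 cells against control (-0.50 to 0.76 with single libraries left out, below 0 without control replicate 1, at -0.36, or shEZH2 replicate 1), and between the depleted lines for KLHL13 (-1.15 to 0.0041, above 0 without shEZH2 replicate 1), RASEF (-0.65 to 0.74, above 0 without shEZH2 replicate 1 or shSUZ12 replicate 2, at 0.15) and FRMPD3 (-0.30 to 0.48, below 0 without shEZH2 replicate 2 or shSUZ12 replicate 1, at -0.04, and -0.26 with the length trend removed). The cause was not tested. NRK was taken into the set for its level in shSUZ12 cells, so its passing the threshold is no result under any setting. Members called lower in shSUZ12 cells are a count without NRK, which was higher there in the main fit. That count was 1 (PLCH2), and 1 with DESeq2 size factors, 2 with no filter and 3 with DESeq2. It was 0 with only the 2 groups fitted and 2 with the length trend removed. Other genes in the class of near-silent genes numbered 16, against 135 at a limit of 2 CPM and 5 at a control limit of 0.5 CPM.

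Replicate numbers were not taken to pair the libraries: deviations of same-numbered libraries correlated at 0.0855 (shSUZ12 and control), 0.116 (shEZH2 and control) and 0.207 (shSUZ12 and shEZH2). With a replicate block the calls were 328, 1233 and 368 for the contrasts in the order above. Between the depleted lines 2 of the 9 genes were then called lower in shSUZ12 cells, beside 173 over all genes. FOXR2 was the one added (edgeR adjusted p 0.0441). Of the 28 named calls 1 was lost, that of FRMD5. With 2 libraries a group, small differences at low counts were not detectable at this depth.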

Other observations

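Genes besides AMPH, FOXR2 and LDB2 had 0 control counts and were read in depleted cells. With the limit set at 2 CPM in a depleted line, 7 genes had 0 control counts, the further 4 being BEX5, MCTP2, POF1B and LINC00648. MCTP2, a calcium-binding membrane protein of the endoplasmic reticulum, was at 4.33 and 3.57 CPM in shSUZ12 cells, 3.57 and 1.69 CPM in shEZH2 cells, and 0 in both control libraries. BEX5, an X-linked gene of the BEX family, was at 2.77 and 2.24 CPM in shSUZ12 cells, 1.69 and 3.01 CPM in shEZH2 cells, and 0 in both control libraries. POF1B, an X-linked gene of epithelial junctions, was at 0.625 and 0.381 CPM in shSUZ12 cells, 3.66 and 1.63 CPM in shEZH2 cells, and 0 in both control libraries.

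With the 4 members left out, 11 of 443 tested X-linked protein-coding genes (2.48%) rose in shSUZ12 cells against control and 3 (0.677%) fell by edgeR's quasi-likelihood test, beside 0.647% and 0.982% of 12215 such genes on other chromosomes. In shEZH2 cells 4.74% rose and 4.51% fell, beside 3.67% and 3.36%. These shares are descriptions, and whether the chromosomes differ was not tested.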
